A study of Mus musculus with 9 samples.

Results

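The replication machinery was followed in 3 kinds of mouse mammary culture through a list of 48 genes, which spans the loading of the replicative helicase at origins, the polymerases with their clamp and clamp loader, the enzymes that supply nucleotides, and the factors that copy chromatin in S phase. A gene entered when the array's annotation gave a probe set, the group of short probes that reports on 1 transcript, its symbol alone. Of the 48 genes, 46 had such a probe set, out of 12393 genes named in this way, and Gins2 and Chaf1a had none. Each gene is represented by its probe set of highest mean intensity, and 37 further probe sets of the same genes are described separately. Tumorspheres (TMS) were free-floating spheres of cells from the tumors that Her2/Neu transgenic mice form in the mammary gland, mammospheres (MMS) were spheres of mammary gland cells from virgin FVB/N females, kept in the same kind of medium, and mammospheres induced to differentiate (diffMMS) were dissociated mammosphere cells kept for 7 days on collagen in medium with serum. Each group had 3 arrays, tumorspheres and mammospheres were harvested between passages 3 and 5, and the tumorsphere cultures were founded from separate tumors. The labels give a strain for both mammosphere groups only. The study transplants its primary tumor cells into FVB/N mice that it calls syngeneic, but does not state the strain behind the tumorsphere arrays. Transgene and tumor origin cannot be told apart in comparisons with tumorspheres, and from the labels alone neither can strain. The differentiated cells differed from mammospheres at once in serum and in adhesion.

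Before S phase the origin recognition complex, Cdc6 and Cdt1 load the Mcm2 to Mcm7 helicase onto DNA, a step called licensing. The Cdc7 kinase with its activating subunit Dbf4, together with Cdc45, the GINS complex and Mcm10, then starts the helicase. Primase and polymerase alpha lay down primers, polymerases delta and epsilon extend them on the Pcna clamp that the Rfc complex loads, and Fen1 and Lig1 join the fragments of the lagging strand. Many of these genes are transcribed under E2F factors as cells pass from G1 into S phase, and their transcripts are widely read as a mark of a cycling culture. A bulk array does not separate fewer cycling cells from less RNA of these genes in each cell.

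The arrays of a group resembled each other closely in these genes. Relative to the mean of the mammosphere arrays, the median gene of the 46 lay at 0.0060, -0.019 and 0.0046 on the log2 scale in the mammosphere arrays, at -0.24, -0.21 and -0.22 in those of tumorspheres, and at -0.54, -0.53 and -0.50 in the differentiated cells. The median SD within a group was 0.0682 for the 46 genes and 0.0663 for all genes in the mammospheres, 0.0583 and 0.0969 in the tumorspheres, and 0.0904 and 0.0895 in the differentiated cells. Array medians of the deposited intensities ran from 84.0 to 88.6, and the 3' to 5' ratio of the control probe sets ran from 0.824 to 0.912 for Gapdh and from 1.18 to 1.48 for beta-actin. The tumorsphere arrays carry codes from a separate run of numbers (1099A to 1101A, against 858A to 863A), and the labels do not say whether these numbers mark a batch. If they did, batch and tumorsphere group cannot be told apart.

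The cultures also differed in markers of cell types. Summed intensities of 7 luminal epithelial markers ran from 3264 to 5465 over the tumorsphere arrays, from 414 to 517 over those of mammospheres and from 336 to 410 in the differentiated cells, and no value was at 0. Krt18, a luminal keratin, averaged 1182, 51.5 and 37.8 in that order, and Cdh1, the epithelial cadherin, 58.0, 9.23 and 8.95. Beside the counts of markers called, 6.22% of all genes were higher and 7.13% lower in tumorspheres against mammospheres. On differentiation these shares were 18.0% and 16.1%, and in tumorspheres against differentiated cells 12.3% and 12.7%. Not all luminal markers moved alike. Of the 7, 5 were higher and 0 lower in tumorspheres against mammospheres. On differentiation 1 was higher and 1 lower, near the shares over all genes. In tumorspheres against differentiated cells 6 were higher and 0 lower. In the mammospheres the mean of Cdh1 was below 39.0, the lower quartile of all intensities, in a culture that the study describes as mammary epithelial. Summed intensities of 7 fibroblast markers, among them the collagen genes Col1a1 and Col1a2, ran from 26484 to 30022, from 32267 to 32966 and from 36199 to 37908. Single fibroblast markers ran both ways, with 3 of the 7 higher and 2 lower on differentiation, among the latter Dcn (-0.50) and Lum (-1.82), 0 higher and 2 lower in tumorspheres against mammospheres, and 2 higher and 4 lower in tumorspheres against differentiated cells. Summed intensities of 7 macrophage markers ran from 1247 to 2046, from 567 to 626 and from 641 to 973, and those of 7 basal or myoepithelial markers from 725 to 847, from 720 to 793 and from 2383 to 3405. Of the macrophage markers 3 were higher and 0 lower in tumorspheres against mammospheres, and 2 higher and 1 lower on differentiation. Of the basal markers 4 were higher and 0 lower on differentiation, with a median of 0.19, and none was called in tumorspheres against mammospheres. In tumorspheres against differentiated cells 1 basal marker was higher and 4 lower. Endothelial and lymphocyte markers, of which 4 and 3 were measured, summed to at most 368 in any array. Of the endothelial markers 0 were higher and 3 lower in tumorspheres against mammospheres, and 0 higher and 2 lower against differentiated cells. None was called on differentiation, and no lymphocyte marker was called in any comparison. The part of this difference in cell makeup in the results on replication genes was not tested.

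Replication genes were highest in mammospheres, lower in tumorspheres and lowest in mammospheres induced to differentiate. In that order stood the group means of 37 of the 46 genes, against 19.3% of all genes. Differentiated cells against mammospheres gave 37 lower and 0 higher genes at an adjusted p under 0.05, where 16.1% of all genes were lower and 18.0% higher, and the median log2 fold change was -0.52 against 0.046 for all genes. Without adjustment 38 of the 46 genes passed 0.05 in this comparison, against 45.0% of all genes in either direction. Tumorspheres against mammospheres gave 18 lower and 0 higher genes, where 7.13% of all genes were lower and 6.22% higher, with a median of -0.21 against 0.0023. There 28 genes passed 0.05 without adjustment, against 26.0% of all genes. The counts over all genes in this comparison changed when single arrays were left out, where all arrays gave 771 higher and 884 lower. They were 443 higher and 463 lower without mammosphere replicate 2, and 450 and 497 without mammosphere replicate 3. On differentiation the higher count of 2230 fell to 1395 and 1392 without these same arrays.

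Tumorspheres against differentiated cells gave 27 higher genes and 1 lower, Cdc7, where 12.3% of all genes were higher and 12.7% lower, with a median of 0.34 against -0.032. The arrays of the groups did not overlap in 42 genes for differentiated cells and mammospheres, in 31 genes for tumorspheres and mammospheres and in 36 genes for tumorspheres and differentiated cells. Over all genes the groups did not overlap in 53.6%, 32.7% and 39.3%, in that order. The 3 comparisons share their arrays and are therefore not independent of each other. Centring each array on its median in place of quantile normalization changed the split over all genes from 771 higher and 884 lower to 610 and 1291 for tumorspheres against mammospheres, and from 2230 and 1998 to 1652 and 2605 for differentiated cells, while no replication gene became higher against mammospheres.

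**Figure D1:**
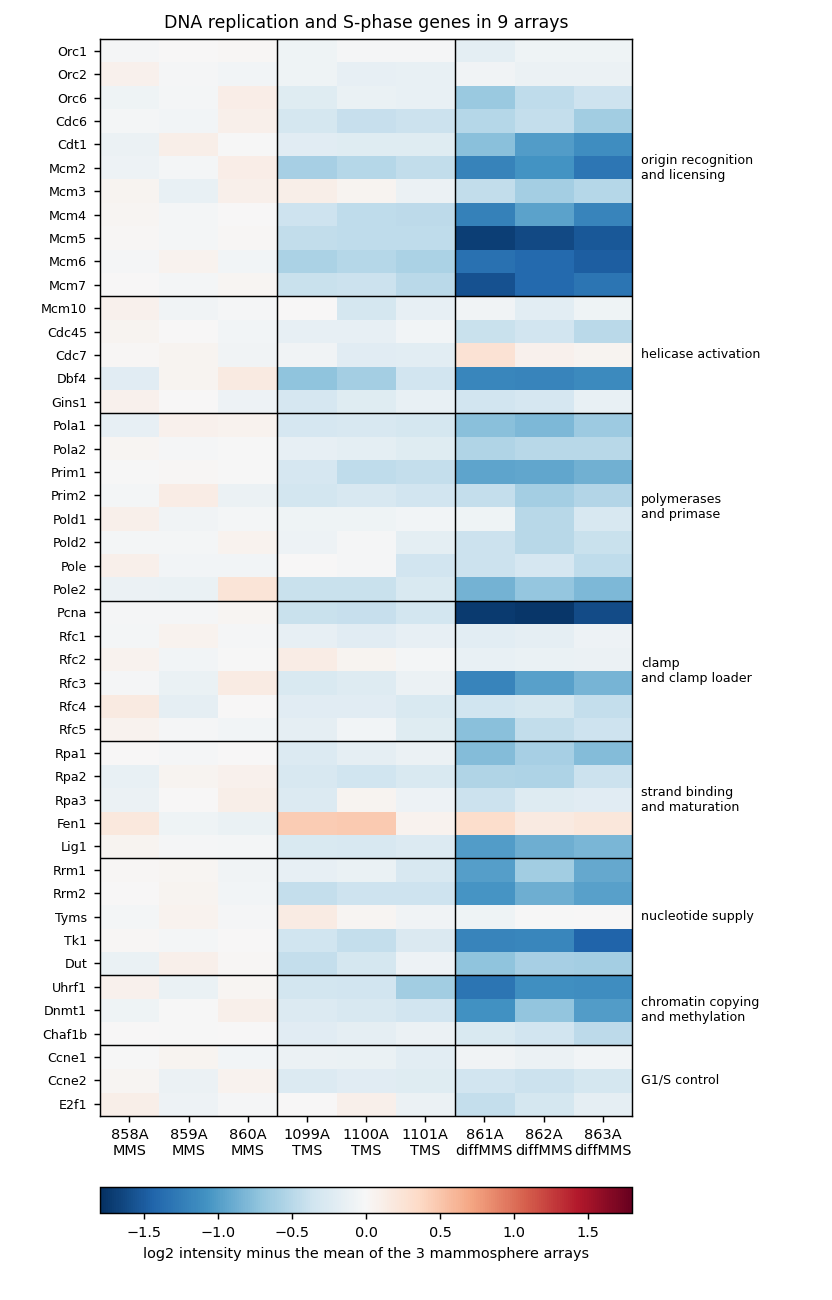
Log2 intensity of 46 replication genes (rows, grouped by role) in the 9 arrays (columns), as the difference from the mean of the 3 mammosphere arrays, with blue for lower and red for higher values. The differentiated cells hold the darkest blue cells, in Pcna and the Mcm genes, the tumorspheres a paler blue in most rows, and Fen1 is the row with the deepest red, in 2 of the tumorsphere arrays.

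**Figure D2:**
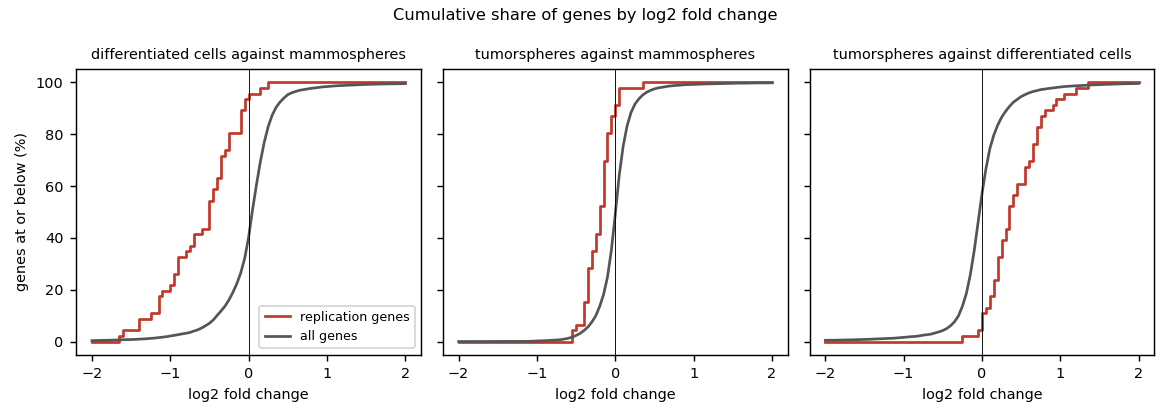
Share of genes (vertical axis, percent) at or below a log2 fold change (horizontal axis) for the 46 replication genes (red) and all 12393 genes (grey) in each comparison. The red line lies left of the grey one in both comparisons against mammospheres, with medians of -0.52 and -0.21, and right of it for tumorspheres against differentiated cells, with a median of 0.34.

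Mcm5, Mcm6 and Pcna were among the 4 genes with the largest falls on differentiation. The 250 bases upstream of their start sites are given here because they differ in the letters searched. Of the letters that E2F factors are known to prefer, only 2 spellings were searched, together with CCAAT for the CCAAT-binding factor NF-Y. The sequences are those of RefSeq on GRCm38.p6, read 5′ to 3′ on the strand of the gene. Capitals mark TTTGGCGC or TTTCGCGC, taken as E2F letters, and CCAAT, each on either strand, so that ATTGG is CCAAT on the opposite strand. Mcm5 lies on the plus strand and the others on the minus strand.
Mcm5, chr8:75109259-75109508: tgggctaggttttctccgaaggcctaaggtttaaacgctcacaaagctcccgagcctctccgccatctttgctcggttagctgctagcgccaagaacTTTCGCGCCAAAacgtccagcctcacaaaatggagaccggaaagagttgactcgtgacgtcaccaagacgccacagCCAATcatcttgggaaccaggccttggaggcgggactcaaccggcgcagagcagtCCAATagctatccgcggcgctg
Mcm6, chr1:128359706-128359955: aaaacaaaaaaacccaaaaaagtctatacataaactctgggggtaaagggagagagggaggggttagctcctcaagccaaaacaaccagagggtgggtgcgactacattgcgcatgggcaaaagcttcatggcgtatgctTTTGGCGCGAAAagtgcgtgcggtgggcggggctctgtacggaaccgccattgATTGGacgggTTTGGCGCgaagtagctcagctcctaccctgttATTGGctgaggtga
Pcna, chr2:132253181-132253430: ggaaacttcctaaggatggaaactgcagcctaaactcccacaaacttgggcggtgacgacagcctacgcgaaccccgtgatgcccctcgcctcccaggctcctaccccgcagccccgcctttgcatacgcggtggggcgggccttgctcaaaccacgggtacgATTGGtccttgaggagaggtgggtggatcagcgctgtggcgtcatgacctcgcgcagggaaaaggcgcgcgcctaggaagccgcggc
In Mcm5 both E2F spellings overlap in 1 run of letters that begins 153 bases before the start site, and 2 CCAAT letters lie between it and the start. In Mcm6 such an overlapping pair begins 110 bases before the start and another match 47 bases before it. The Pcna window holds 1 CCAAT match, 87 bases before the start, and neither E2F spelling.

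Across the family, 41 of the 48 genes had a promoter entry of 250 bases before and 50 bases after the start, and Mcm4, Gins1, Gins2, Rfc2, Prim2, Pole and Ccne2 had none. E2F letters stood in 12 of the 41 genes (29.3%), against 0.929% of 27025 genes with an entry, and in 12 of 51 promoters (23.5%) against 0.813% of all 32851. The 12 genes were Mcm3, Mcm5, Mcm6, Mcm7, Cdt1, Orc1, Rfc3, Pola1, Pole2, Lig1, Uhrf1 and Dnmt1. CCAAT stood in 24 of the 41 genes (58.5%), against 41.1% of all genes. Of the genes with an entry, E2F letters were held by 11 of the 32 that fell on differentiation and by 1 of the 8 measured genes that did not pass the test, Orc1. These shares are descriptions without a test, were not matched for base composition, and a match of letters is not a bound site.

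Of the genes for origin recognition and licensing, 9 of 11 fell on differentiation, and the helicase subunits fell furthest. Beside the counts of this and the other roles, 16.1% of all genes were lower on differentiation and 7.13% in tumorspheres against mammospheres. Mcm5 had log2 intensities of 7.65, 7.60 and 7.64 in the mammospheres, 7.19, 7.18 and 7.18 in the tumorspheres and 5.94, 6.0 and 6.11 in the differentiated cells. The groups were far apart, with differentiated cells 3.06-fold below mammospheres (log2 fold change -1.61, standard error 0.0705, limma adjusted p = 1.5e-08) and tumorspheres 1.36-fold below them (-0.45, adjusted p = 0.00152). Mcm6 stood at 7.92, 8.0 and 7.88 in the mammospheres, 7.37, 7.42 and 7.36 in the tumorspheres and 6.60, 6.54 and 6.45 in the differentiated cells. It fell by 1.41 on the log2 scale on differentiation (standard error 0.0722, adjusted p = 5.59e-08) and was 1.46-fold lower in tumorspheres than in mammospheres (adjusted p = 0.000465), the second largest fall of the family in that comparison after Dbf4. Mcm7, Mcm2 and Mcm4 showed the same order of groups, with log2 fold changes on differentiation of -1.43, -1.19 and -1.12 and no overlap between any of the groups. On the dimmest probe set of Mcm7 the difference between tumorspheres and mammospheres did not pass.

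Mcm3, a further subunit of the helicase ring, gave values that depended on the probe set. On the brightest its log2 intensities were 7.84, 7.65 and 7.88 in the mammospheres and 7.89, 7.84 and 7.68 in the tumorspheres, which overlap (log2 fold change 0.016, adjusted p = 0.937), and 7.35, 7.17 and 7.28 in the differentiated cells (-0.52, adjusted p = 0.000906). Another probe set of Mcm3 fell by 1.15 on differentiation (adjusted p = 1.96e-06) and by 0.49 in tumorspheres (adjusted p = 0.00394), and a dimmer one fell by 0.74 on differentiation and did not pass in tumorspheres (-0.22). The remaining sets, 1 of them with the suffix x for probes that can match other transcripts, passed in neither comparison. Among the loading factors, Cdt1 fell by 0.96 and Cdc6 by 0.52 on differentiation, and Cdc6 was also lower in tumorspheres than in mammospheres (-0.37, adjusted p = 0.0035), whereas Cdt1 did not pass there (-0.21, adjusted p = 0.177). Cdc6 is a dim probe set with a mean below the lower quartile of intensities.

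On differentiation the subunits of the origin recognition complex changed least of the licensing genes. Orc6 fell by 0.50 on differentiation (adjusted p = 0.00118). Orc2 had log2 intensities of 7.33, 7.24 and 7.20 in the mammospheres, 7.19, 7.11 and 7.13 in the tumorspheres and 7.20, 7.14 and 7.15 in the differentiated cells. Every mammosphere array was above every array of the other groups, by less than the rounding in the closest pair, yet the differences of -0.095 (adjusted p = 0.32) for differentiated cells and -0.12 (adjusted p = 0.322) for tumorspheres did not pass the test. Orc1, the subunit that is known to be made anew in each cycle, was dim and did not pass in either comparison (-0.11 and -0.041).

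**Figure D3:**
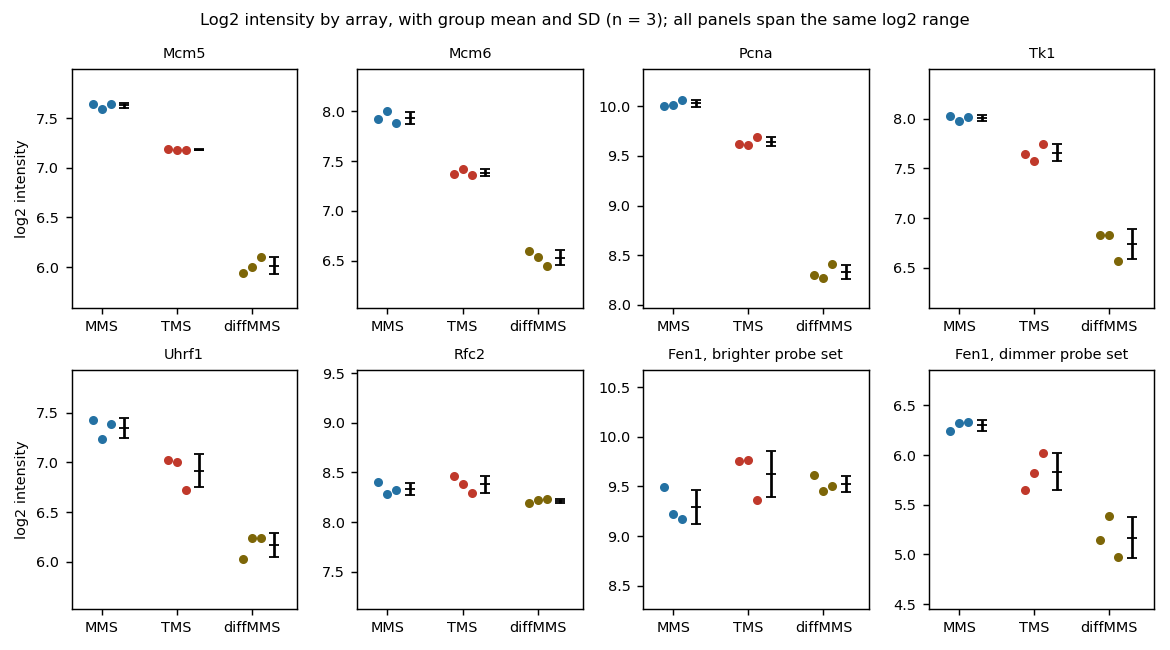
Log2 intensity (vertical axis) of single arrays for 7 genes in mammospheres (MMS), tumorspheres (TMS) and differentiated cells (diffMMS), with the group mean and SD beside the points (n = 3) and the same log2 span in every panel. Mcm5, Mcm6, Pcna, Tk1 and Uhrf1 step down from mammospheres to tumorspheres to differentiated cells, Rfc2 stays between 8.19 and 8.46, and the brighter and dimmer probe sets of Fen1 run in different directions.

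Genes that start the helicase were mixed. Dbf4 had log2 intensities of 6.64, 6.89 and 7.01 in the mammospheres, 6.13, 6.24 and 6.51 in the tumorspheres and 5.68, 5.66 and 5.71 in the differentiated cells, and the groups did not overlap. It fell by 1.17 on differentiation (standard error 0.111, adjusted p = 9.05e-06) and showed the largest fall of all 46 genes in tumorspheres against mammospheres (-0.56, standard error 0.111, adjusted p = 0.00575). Its further probe set was dim and did not follow (0.12 and 0.088, adjusted p = 0.283 and 0.534). Cdc7, the kinase that Dbf4 activates, stood at 6.46, 6.5 and 6.38 in the mammospheres, 6.39, 6.24 and 6.27 in the tumorspheres and 6.71, 6.52 and 6.49 in the differentiated cells. It was the 1 gene of the family that was lower in tumorspheres than in differentiated cells (-0.28, adjusted p = 0.0263), a call lost without tumorsphere replicate 2 or 3, without differentiated replicate 1 (range over single arrays left out -0.32 to -0.21) and in a fit of these groups alone.

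The dimmer probe set of Cdc7 gave another picture, with 5.92, 5.99 and 6.10 in the mammospheres, 5.28, 5.34 and 5.19 in the tumorspheres and 5.05, 5.19 and 5.16 in the differentiated cells. On it both tumorspheres (-0.73, adjusted p = 4.43e-05) and differentiated cells (-0.87, adjusted p = 2.07e-06) lay below mammospheres, and tumorspheres did not pass against differentiated cells (0.14, adjusted p = 0.168). The direction for Cdc7 on differentiation thus depends on the probe set. Cdc45 and Gins1, parts of the active helicase, fell on differentiation by 0.41 and 0.26 (adjusted p = 0.00105 and 0.0286), the latter a call lost without mammosphere replicate 1 or 2 or differentiated replicate 1 or 2, with -0.32 to -0.22 over single arrays left out. Mcm10, a scaffold of the starting helicase, had values of 7.16, 7.03 and 7.07 in the mammospheres, 7.09, 6.77 and 6.94 in the tumorspheres and 7.02, 6.89 and 7.01 in the differentiated cells. Its differences of -0.11 and -0.15 from mammospheres did not pass the test (adjusted p = 0.36 and 0.303).

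On their brightest probe sets all 8 genes of the polymerases and primase fell on differentiation, by 0.91 to 0.29 on the log2 scale. Of these, 4 were lower in tumorspheres than in mammospheres. Prim1, the catalytic subunit of primase, had log2 intensities of 7.23, 7.27 and 7.23 in the mammospheres, 6.94, 6.79 and 6.81 in the tumorspheres and 6.30, 6.31 and 6.38 in the differentiated cells. The groups lay apart by several times their spread, with -0.91 (standard error 0.0713, adjusted p = 1.78e-06) on differentiation and -0.40 (adjusted p = 0.00334) in tumorspheres. On the dimmest probe set of Prim1 the tumorsphere difference did not pass. Pole2, a subunit of polymerase epsilon, and Pola1, the catalytic subunit of polymerase alpha, fell by 0.79 and 0.74 on differentiation and were -0.36 and -0.30 in tumorspheres, with adjusted p = 0.0314 and 0.0253. Prim2, the large primase subunit, was also lower in tumorspheres (-0.32, adjusted p = 0.0227), but did not pass on its dimmest probe set. These calls did not hold in every fit that left out 1 array, and such fits have fewer arrays to test with. That of Pole2 was lost without tumorsphere replicate 1 or 2 or mammosphere replicate 3. That of Pola1 was lost without tumorsphere replicate 1 or 2 or mammosphere replicate 2 or 3, and that of Prim2 without replicate 1 or 2 of either group. Values with single arrays left out stayed below 0, at -0.41 to -0.24 for Pole2, -0.37 to -0.26 for Pola1 and -0.37 to -0.25 for Prim2.

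Pold1, the catalytic subunit of polymerase delta, changed least of the polymerase genes. It stood at 6.85, 6.70 and 6.73 in the mammospheres, 6.68, 6.69 and 6.71 in the tumorspheres and 6.68, 6.27 and 6.47 in the differentiated cells. Its first differentiated array lay among the tumorsphere values, and the fall of 0.29 on differentiation (adjusted p = 0.0396) was lost in 6 of the 9 fits that left out 1 array, with values of -0.40 to -0.19. These were the fits without tumorsphere replicate 2, without each mammosphere array and without differentiated replicate 2 or 3. Pola2, Pold2 and Pole fell by 0.51, 0.43 and 0.38 on differentiation and did not pass in tumorspheres against mammospheres. On the dimmest probe set of Pola2 no fall was seen on differentiation (0.043, adjusted p = 0.679).

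Pcna, the sliding clamp, showed the largest fall on differentiation of the whole family. Its log2 intensities were 10.01, 10.01 and 10.07 in the mammospheres, 9.62, 9.61 and 9.69 in the tumorspheres and 8.30, 8.28 and 8.41 in the differentiated cells, without overlap between any groups. Differentiated cells were 3.24-fold below mammospheres (log2 fold change -1.70, standard error 0.0693, adjusted p = 9.17e-09), tumorspheres 1.31-fold below them (-0.39, adjusted p = 0.00328), and tumorspheres 2.48-fold above differentiated cells (adjusted p = 7.03e-08). In its loader, Rfc3, Rfc5 and Rfc4 fell by 1.0, 0.52 and 0.37 on differentiation, while the large subunit Rfc1 did not pass (-0.15, adjusted p = 0.124). Rfc2 stood at 8.40, 8.28 and 8.32 in the mammospheres, 8.46, 8.38 and 8.29 in the tumorspheres and 8.19, 8.22 and 8.23 in the differentiated cells. Its tumorsphere and mammosphere values overlapped (0.046, adjusted p = 0.742) and its difference on differentiation did not pass (-0.12, adjusted p = 0.234), although it did without quantile normalization. On the brightest sets no gene of the clamp loader passed in tumorspheres against mammospheres, where their values ran from -0.23 for Rfc4 to 0.046 for Rfc2. Rfc4 was close to the threshold there (adjusted p = 0.0516). It passed with centring, another variance model, weighted arrays, the mean of its probe sets or without mammosphere replicate 2. Rfc3 passed as lower on its dimmest probe set.

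Of the genes for binding of single strands and joining of fragments, Lig1, Rpa1, Rpa2 and Rpa3 fell on differentiation. Lig1, the replicative ligase, had log2 intensities of 7.73, 7.66 and 7.65 in the mammospheres, 7.41, 7.39 and 7.43 in the tumorspheres and 6.67, 6.80 and 6.85 in the differentiated cells. The groups did not overlap, with -0.90 (standard error 0.0725, adjusted p = 2.17e-06) on differentiation and -0.27 (adjusted p = 0.0285) in tumorspheres, the latter lost without tumorsphere replicate 1 or 2 or any 1 of the mammosphere arrays, at -0.28 to -0.24. The subunits of the single-strand binding protein fell by 0.72 for Rpa1, 0.49 for Rpa2 and 0.28 for Rpa3, of which Rpa2 was also lower in tumorspheres than in mammospheres (-0.31, adjusted p = 0.0239). The call of Rpa3 was lost without mammosphere replicate 2 or 3 or any 1 of the differentiated arrays (-0.33 to -0.22), and that of Rpa2 in tumorspheres without tumorsphere replicate 2 or mammosphere replicate 2 or 3 (-0.37 to -0.27).

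Fen1, the nuclease that trims flaps on the lagging strand, gave opposite signs on its probe sets. The brighter one stood at 9.49, 9.22 and 9.17 in the mammospheres, 9.75, 9.76 and 9.36 in the tumorspheres and 9.61, 9.46 and 9.50 in the differentiated cells. These overlapped, and neither 0.23 on differentiation (adjusted p = 0.16) nor 0.33 in tumorspheres (adjusted p = 0.0876) passed. The dimmer one stood at 6.24, 6.32 and 6.33 in the mammospheres, 5.65, 5.82 and 6.02 in the tumorspheres and 5.14, 5.38 and 4.97 in the differentiated cells. It fell by 1.13 on differentiation (standard error 0.11, adjusted p = 1.09e-05) and by 0.47 in tumorspheres (adjusted p = 0.0147), in the order of groups seen for most of the family. The name of the brighter probe set carries the suffix x, by which Affymetrix marks sets with probes that can match other transcripts.

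Among the genes of nucleotide supply, 4 of 5 fell on differentiation. Tk1, the thymidine kinase of S phase, had log2 intensities of 8.03, 7.98 and 8.02 in the mammospheres, 7.65, 7.58 and 7.75 in the tumorspheres and 6.83, 6.83 and 6.57 in the differentiated cells. Differentiated cells were 2.4-fold below mammospheres (-1.27, standard error 0.0868, adjusted p = 6.13e-07), and the fall of 0.35 in tumorspheres (adjusted p = 0.0185) was lost without tumorsphere replicate 2 and without each of the mammosphere arrays in turn (-0.39 to -0.31). Rrm2, the subunit of ribonucleotide reductase that is made in S phase, stood at 8.17, 8.21 and 8.11 in the mammospheres, 7.73, 7.79 and 7.79 in the tumorspheres and 7.10, 7.28 and 7.18 in the differentiated cells. It fell by 0.97 on differentiation (standard error 0.0736, adjusted p = 1.35e-06) and by 0.39 in tumorspheres (adjusted p = 0.00408). Its partner Rrm1 fell by 0.85 on differentiation and did not pass in tumorspheres (-0.19, adjusted p = 0.245), and the same held for Dut, which removes dUTP (-0.65 and -0.28, the latter with adjusted p = 0.0718). In tumorspheres Rrm1 did pass as lower with centring, with the mean of its probe sets and on its dimmest set. Dut did so with weighted arrays and without tumorsphere replicate 3. Tyms, the thymidylate synthase, was dim at 4.99, 5.09 and 5.00 in the mammospheres, 5.18, 5.06 and 4.96 in the tumorspheres and 4.95, 5.02 and 5.04 in the differentiated cells, and its differences of -0.025 and 0.038 from mammospheres had adjusted p = 0.786 and 0.75.

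All 3 measured genes that copy chromatin and its methylation fell on differentiation. Uhrf1, which reads hemimethylated DNA behind the fork, had log2 intensities of 7.43, 7.23 and 7.39 in the mammospheres, 7.02, 7.01 and 6.73 in the tumorspheres and 6.03, 6.24 and 6.24 in the differentiated cells. It fell by 1.18 on differentiation (standard error 0.0998, adjusted p = 3.46e-06) and by 0.43 in tumorspheres (adjusted p = 0.0137), the latter lost without mammosphere replicate 1 or 3 (-0.48 to -0.33). Dnmt1, the maintenance methyltransferase that Uhrf1 recruits, fell by 0.94 on differentiation and did not pass in tumorspheres (-0.29, adjusted p = 0.0655). It did pass as lower there with the values as deposited, centring, weighted arrays, the mean of its probe sets or only tumorspheres and mammospheres fitted. Chaf1b, a subunit of the histone chaperone CAF-1, stood at 6.34, 6.33 and 6.34 in the mammospheres, 6.13, 6.18 and 6.22 in the tumorspheres and 6.06, 5.99 and 5.86 in the differentiated cells. The mammosphere arrays lay above all others, with -0.37 on differentiation (adjusted p = 0.00203) and -0.16 in tumorspheres, which did not pass (adjusted p = 0.168).

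On differentiation the genes that govern entry into S phase changed by less than most of the machinery. The scale used understates changes of dim genes, here Ccne2. Ccne1, the cyclin E1 that activates Cdk2, had log2 intensities of 6.87, 6.93 and 6.83 in the mammospheres, 6.77, 6.76 and 6.69 in the tumorspheres and 6.81, 6.78 and 6.83 in the differentiated cells, with differences of -0.070 and -0.14 from mammospheres that did not pass (adjusted p = 0.46 and 0.221). Its tumorsphere values lay below those of both other groups. Ccne2, which encodes cyclin E2, was dim, at 4.58, 4.44 and 4.61 in the mammospheres, 4.29, 4.33 and 4.32 in the tumorspheres and 4.19, 4.16 and 4.22 in the differentiated cells. It was lower than in mammospheres both on differentiation (-0.35, standard error 0.0442, adjusted p = 9.12e-05) and in tumorspheres (-0.23, adjusted p = 0.00522). E2f1, the activating factor, fell by 0.30 on differentiation (adjusted p = 0.0246), a call lost without mammosphere replicate 1 or 3 or differentiated replicate 1 or 2 (-0.38 to -0.24), and its tumorsphere and mammosphere values overlapped (-0.0019, adjusted p = 0.993).

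**Figure D4:**
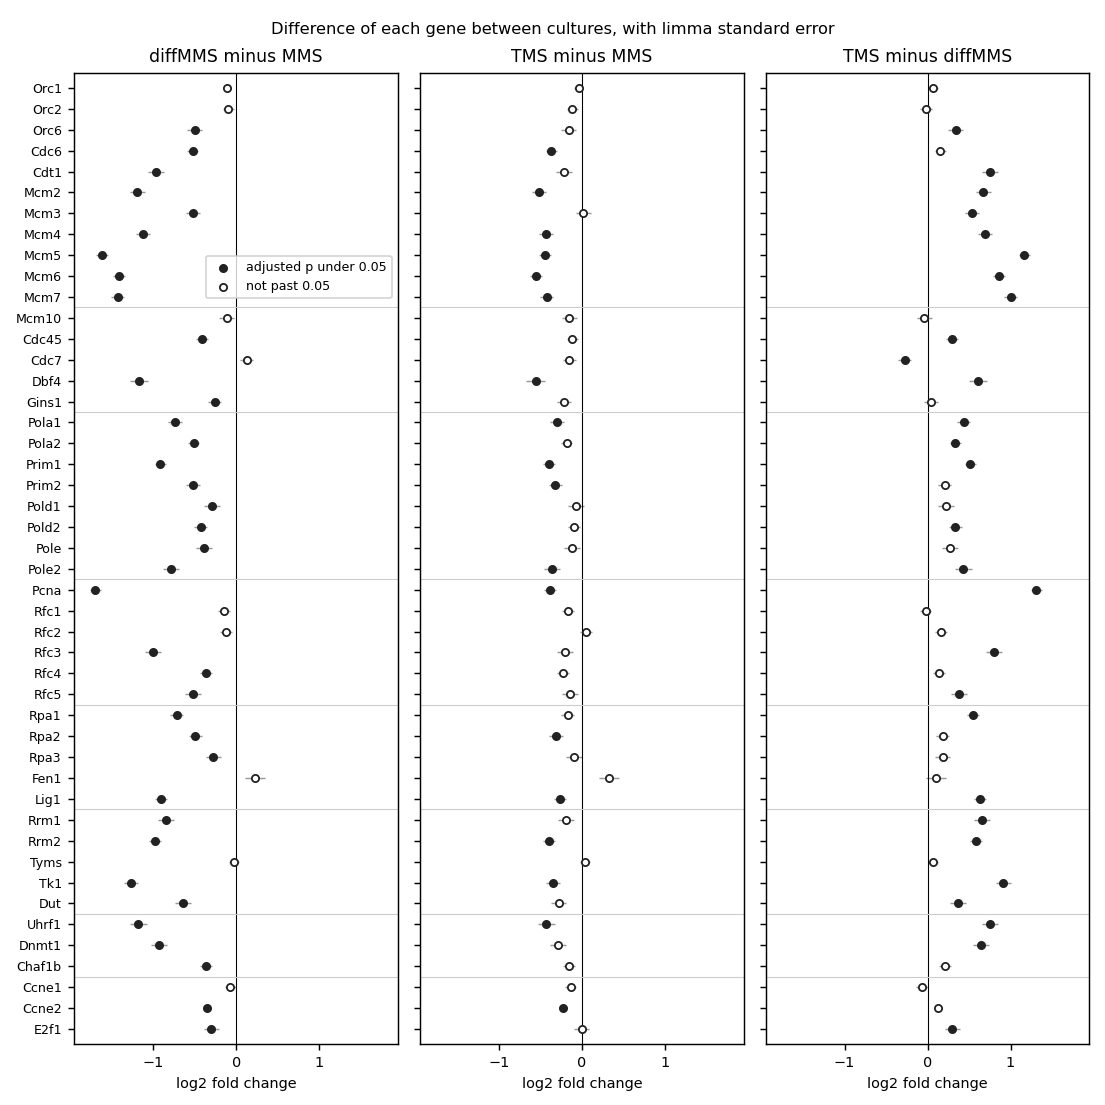
Log2 fold change of each gene (rows, in role order) in the 3 comparisons, with the limma standard error as a line, filled points for an adjusted p under 0.05 and open points otherwise. Filled points lie left of 0 for 37 and 18 genes in the comparisons against mammospheres, and for tumorspheres against differentiated cells 27 lie right of 0 and 1, Cdc7, lies left.

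Tumorspheres held intermediate levels in most roles when set against differentiated cells. Of all genes, 12.3% were higher in tumorspheres in this comparison. Higher in tumorspheres were 8 of 11 licensing genes, 2 of 5 genes of helicase activation, 5 of 8 of the polymerases and primase, 3 of 6 of clamp and clamp loader, 2 of 5 of strand binding and maturation, 4 of 5 of nucleotide supply, 2 of 3 of chromatin copying and 1 of 3 of G1/S control. The largest of these differences were those of Pcna (1.31, standard error 0.0693), Mcm5 (1.17, standard error 0.0705), Mcm7 (1.0, standard error 0.0802) and Tk1 (0.91, standard error 0.0868). Mcm3 and E2f1, which did not pass in tumorspheres against mammospheres, were among the genes higher in tumorspheres than in differentiated cells (0.54 and 0.30, adjusted p = 0.000931 and 0.0326). The call for E2f1 was lost without tumorsphere replicate 1 or 2, mammosphere replicate 3 or differentiated replicate 1 or 2 (0.24 to 0.37). Those of Orc6 and Rfc5 were lost without tumorsphere replicate 2 (0.26 to 0.40 and 0.27 to 0.45), that of Orc6 also without differentiated replicate 1, and that of Dut without tumorsphere replicate 3 or differentiated replicate 1 (0.27 to 0.44).

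Further probe sets bore on how far single values can be read. Of the 46 genes, 27 had several probe sets. On differentiation 23 of the 37 further sets were lower, 0 higher and 14 not called, where 19.3% of the further probe sets of all genes were lower and 13.9% higher. In tumorspheres against mammospheres 13 were lower and 0 higher, against 9.33% and 7.30% over all genes, and in tumorspheres against differentiated cells 18 were higher and 0 lower, against 12.6% and 10.2%. Counting a gene as lower when any of its probe sets was, 40 genes were lower on differentiation and 23 in tumorspheres, against 20.7% and 10.8% of all genes counted in the same way. The size of a fall varied between sets of 1 gene. Further sets of Rrm2 fell by 1.99 and 2.01 on differentiation where the brightest fell by 0.97, and the further set of Uhrf1 fell by 1.89 where the brightest fell by 1.18. Of the further sets of Cdt1, 1 fell by 1.32 (adjusted p = 4.19e-07), while a dim one, near 4.29 in every array, showed a difference of -0.023 (adjusted p = 0.663).

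**Figure D5:**
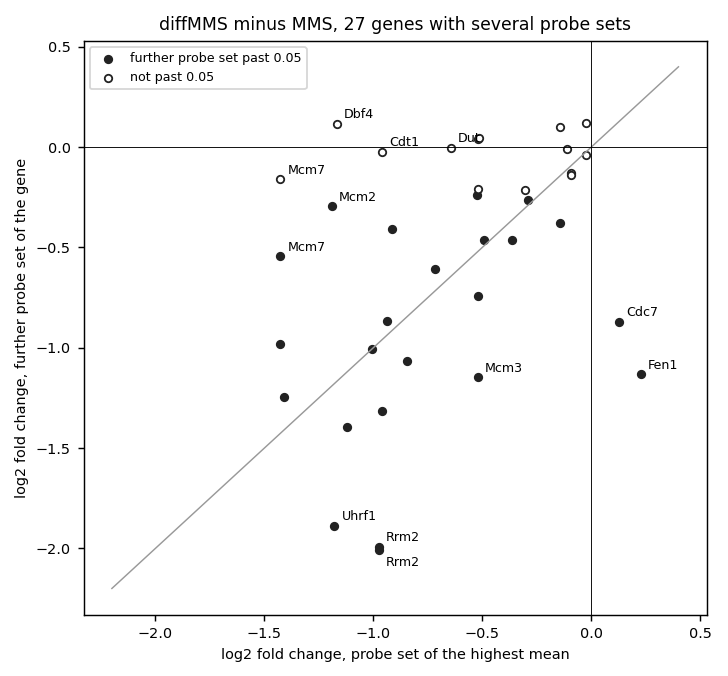
Log2 fold change of differentiated cells against mammospheres on the brightest probe set of a gene (horizontal axis) and on each of its 37 further probe sets (vertical axis), with filled points for further sets past the adjusted p of 0.05 and a grey line of equality. Further sets of Rrm2 and Uhrf1 lie below the line, that of Dbf4 and 1 of those of Cdt1 near 0, and those of Cdc7 and Fen1 far below 0 although their brightest sets lie above it.

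Other genes of replication, which were listed separately, moved less uniformly. Of 50 such genes 40 were measured, of which 22 were lower and 3 higher on differentiation, 12 lower and 0 higher in tumorspheres against mammospheres, and 14 higher and 3 lower in tumorspheres against differentiated cells. Over all genes the shares were 16.1% lower and 18.0% higher, 7.13% lower and 6.22% higher, and 12.3% higher and 12.7% lower, in that order. Among the 40 genes, the largest falls on differentiation were those of Top2a, the topoisomerase of dividing cells (-1.8), and of the Pcna partner Pclaf (-1.63). The 3 that rose were Ctps, which makes CTP (0.96, adjusted p = 1.13e-05), Shmt1, an enzyme of folate metabolism (0.38, adjusted p = 0.0219), and Pold4, the smallest subunit of polymerase delta (0.37, adjusted p = 0.0018). In tumorspheres the largest falls against mammospheres were again those of Top2a (-0.70) and Pclaf (-0.62), and Ctps and Pold4 were lower than in differentiated cells (-0.84 and -0.33). The median log2 fold change of the 40 genes was -0.27 on differentiation and -0.18 in tumorspheres.

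Genes of mitosis fell alongside those of replication. Of 23 measured, 20 were lower on differentiation and 17 in tumorspheres against mammospheres, 18 were higher in tumorspheres than in differentiated cells, and none ran the other way past the threshold. Over all genes these shares were 16.1% lower, 7.13% lower and 12.3% higher, in that order. The medians of the mitosis genes, -0.91, -0.38 and 0.41, stood beside those of -0.52, -0.21 and 0.34 for the 46 replication genes. Birc5, a subunit of the chromosomal passenger complex, fell by 1.99 on differentiation (standard error 0.15, adjusted p = 1.35e-06), and Ube2c, which acts with the anaphase-promoting complex, by 1.39. In tumorspheres against mammospheres Birc5 and the mitotic kinase gene Aurkb were lower (-0.64 and -0.59, adjusted p = 0.0143 and 0.000707). Of 10 genes that restrain G1 and S phase, Samhd1, which degrades dNTPs, and Cdkn1b, which encodes the p27 inhibitor, rose on differentiation (0.65 and 0.27, adjusted p = 0.000433 and 0.0396), whereas Cdkn1a, which encodes p21, fell (-0.35, adjusted p = 0.0402). These 2 rises and 1 fall among 10 genes lay near the shares over all genes, 18.0% higher and 16.1% lower. In tumorspheres against mammospheres 1 of the 10 passed, the inhibitor gene Cdkn2c (-0.41, adjusted p = 0.00429), where 7.13% of all genes were lower. Against differentiated cells, Rb1 and Cdkn1a were higher in tumorspheres (0.72 and 0.39) and Samhd1 and Cdkn2c lower (-0.54 and -0.34). There 12.3% of all genes were higher and 12.7% lower.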

How the data were processed

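Total RNA was hybridized to 9 MOE430A arrays, 3 per group. The authors deposited 1 table of intensity values on a linear scale, already summarised per probe set, by a method not given in the sources used here. They name GeneSpring for the analysis. No depth applies to arrays, and their number limits the precision. From the 22690 probe sets, 64 controls were left out. To each intensity 10% of the median (8.67) was added before log2 and quantile normalization, which was used because quartiles differed between arrays by up to 0.134, above a limit of 0.1. Fold changes are on this scale, which understates those of dim genes.

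A linear model with 1 mean per group was fitted in limma 3.58.1 (R 4.3.3; lmFit and eBayes with an intensity trend) to the 9 arrays together, which leaves 6 residual degrees of freedom. Tests were two-sided, with Benjamini-Hochberg adjustment across 22626 probe sets and a threshold of 0.05. Values are given by array, per role, for the gene with the largest and the smallest change on differentiation, that with the largest change in tumorspheres against mammospheres, and any gene called against the direction of most, and of other lists for the 2 largest rises and falls of a comparison. Mcm3 and the further probe sets shown were chosen after their values were seen. Of the probe sets, 20380 carried 1 gene symbol, 691 several and 1555 none. The replication genes and the other lists were chosen with earlier results of these data known. The preparations are called independent in the labels. The fit was tested on simulated data. Alternatives were other scalings, pseudocounts, filters, variance models, thresholds and probe sets, and each array left out.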

Additional observations from a re-analysis of the deposited data

How the results depend on the processing

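Of the 37 replication genes lower on differentiation, all 37 kept their call with other pseudocounts, centring on the median, other variance models, array weights or only the groups compared, and 34 with the values as deposited. The median log2 fold change of the family on differentiation was -0.49 as deposited, -0.57 without a pseudocount, -0.48 with one of 20%, -0.49 with the mean of a gene's probe sets and -0.42 with the set of lowest mean. Read on the set of lowest mean, 31 of the 37 kept their call. Cdt1, Dbf4, Dut, E2f1, Mcm3 and Pola2 lost it, and Cdc7 and Fen1 were gained as lower. On that set 14 of the 18 genes called in tumorspheres against mammospheres kept their call, with 4 gained. In tumorspheres against differentiated cells 20 of the 28 did, with 3 gained. Without dim probe sets, which left 29 genes, 23 were lower on differentiation and the median was -0.72. For tumorspheres against mammospheres the median was -0.19 as deposited, -0.23 with centring, -0.23 without a pseudocount, -0.18 with one of 20%, -0.19 without dim probe sets and -0.18 with the set of lowest mean. There 11 genes were lower at an adjusted p under 0.01, and array weights gave 1 higher, Fen1. For tumorspheres against differentiated cells the median was 0.37 without a pseudocount, 0.31 with one of 20%, 0.54 without dim probe sets, 0.31 with the mean of probe sets and 0.24 with the set of lowest mean, and the lower count of 1 became 0 without dim probe sets, with only the groups compared, at 0.01, with the mean and with the set of lowest mean. With each array left out, 12 to 19 genes were lower and 0 to 1 higher (Fen1, without tumorsphere replicate 3 or mammosphere replicate 1) in tumorspheres against mammospheres (medians -0.21 to -0.19), 33 to 37 lower and 0 higher on differentiation (-0.54 to -0.50), and 24 to 28 higher and 0 to 1 lower in tumorspheres against differentiated cells (0.32 to 0.38).

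Among the 19 genes given by array under the rule, signs turned for 8. In tumorspheres against mammospheres, Rfc2 was -0.029 as deposited and -0.075 with centring, and Tyms ran from -0.017 (without tumorsphere replicate 1) to 0.091 with single arrays left out. The mean of probe sets gave -0.069 for Fen1 and 0.030 for Pold1, and the set of lowest mean gave 0.088 for Dbf4, -0.47 for Fen1, 0.060 for Mcm10, 0.13 for Pold1 and -0.092 for Tyms. On differentiation, Tyms was 0.051 as deposited, 0.0025 with centring, -0.044 to 0.0075 with single arrays left out (above 0 without mammosphere replicate 2 or differentiated replicate 1) and 0.018 with the mean of probe sets, and Fen1 was -0.042 with centring. The mean of probe sets gave -0.37 for Cdc7 and -0.45 for Fen1, and the set of lowest mean -0.87 for Cdc7, 0.12 for Dbf4 and -1.13 for Fen1. In tumorspheres against differentiated cells, Orc2 was 0.0066 as deposited, 0.0095 with centring, 0.050 with the mean of probe sets and 0.024 with the set of lowest mean, and Mcm10 was -0.12 to 0.040 with single arrays left out (above 0 without tumorsphere replicate 2), 0.015 with the mean of probe sets and 0.071 with the set of lowest mean. That set also gave 0.14 for Cdc7, -0.029 for Dbf4 and -0.051 for Tyms. Of the other 27 genes, 8 turned sign, in no case with both values past the test. In tumorspheres against mammospheres these were Mcm3 (-0.013 as deposited, -0.059 with centring, -0.053 to 0.076 with single arrays left out, -0.20 with the mean of probe sets and -0.043 with the set of lowest mean), Orc1 (0.0064 as deposited), E2f1 (0.055 with array weights, -0.052 to 0.051 with single arrays left out), Cdt1 (0.018 with the set of lowest mean) and Rfc1 (0.11 with that set). On differentiation the set of lowest mean turned Rfc1 (0.098), Pola2 (0.043) and Mcm3 (0.038). In tumorspheres against differentiated cells Rfc1 was 0.013 as deposited, 0.016 with centring, -0.043 to 0.0069 with single arrays left out, 0.029 with the mean of probe sets and 0.013 with the set of lowest mean, Gins1 ran from -0.00047 to 0.10 with single arrays left out, and the set of lowest mean gave -0.074 for Pola2, -0.057 for Dut and -0.081 for Mcm3. Except where another probe set was read or dim sets were left out, the cause was not tested. No paired analysis was possible because the labels number no replicates across the groups. Signal limits Cdc6, Orc1, Rfc4, Tyms and Ccne2, whose means lay below the lower quartile of intensities.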
